A study of Mus musculus with 96 samples.

Results

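Receptor genes of the purinergic system, 10 in all and taken by gene symbol from a table of 54532 mouse genes, were followed through the glomerulus and 14 microdissected segments of the renal tubule. Of these 10 genes, Adora1, Adora2a and Adora2b encode adenosine receptors, P2ry1, P2ry2, P2ry4 and P2ry14 encode G protein-coupled nucleotide receptors of the P2Y family, and P2rx4, P2rx5 and P2rx7 encode subunits of the P2X channels. RNA from very small inputs was sequenced in 93 samples, 87 of tubule and 6 of glomerulus, from 53 male C57BL/6 mice aged 6 to 8 weeks that had free access to water and standard chow. No group was treated or genetically altered, so the groups differ in the structure dissected. The proximal tubule was divided into its initial convoluted portion (PTS1), the straight portion of the cortical medullary rays (PTS2) and the final straight portion (PTS3), which lies in the outer stripe. The thin limbs of Henle's loop were DTL1, which descends in short loops, DTL2 and DTL3, the outer and inner medullary stretches of the limb that descends in long loops, and ATL, the ascending thin limb. After these came the thick ascending limb, taken from medulla (MTAL) and cortex (CTAL). The distal segments were DCT, the distal convoluted tubule, and CNT, the connecting tubule. The collecting duct was sampled at 3 depths, cortical (CCD), outer medullary (OMCD) and inner medullary (IMCD). There were 5 mice in PTS2, CTAL and CCD, 4 in ATL and OMCD, and 3 in each other group.

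Extracellular ATP is released by tubule cells and broken down at the cell surface, step by step, to adenosine. ATP and other nucleotides act on P2Y receptors, which signal through G proteins, and on P2X receptors, which are cation channels opened by ATP, whereas adenosine acts on its own G protein-coupled receptors. In the kidney these signals are known for adjusting glomerular filtration through tubuloglomerular feedback and for restraining salt and water reabsorption in the distal nephron and collecting duct.

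Transcript abundance is given as TPM, a share of all transcripts corrected for transcript length, so levels may be compared between genes. TPM keeps no read number, and sequencing depth is therefore unknown. Values are means ± SD over mice. The microdissected pieces contain more than 1 cell type, and fewer cells of a type and less RNA per cell cannot be told apart. Segment markers were checked as summed lists. The podocyte list reached 9666 TPM in the glomerulus, the thick limb list 25400 TPM in MTAL and 43550 TPM in CTAL, the distal convoluted list 6284 TPM in DCT, and the principal cell list 10090 to 33810 TPM from CNT to IMCD. The proximal tubule list was at 12430 TPM in PTS1 and 6723 TPM in PTS2 but only 79.9 TPM in PTS3, below 1 DCT mouse at 199 TPM. Odorant and vomeronasal receptor genes, which kidney cells are not expected to use, served as a measure of background signal. Of 1459 such genes, a median of 736 reached 1 TPM in DTL1, 526 in glomeruli, 409 in DTL3, 270 in ATL (15 to 588 over its mice), 258 in DTL2 and 82 in OMCD. The median was 18 in PTS1 and 8 in IMCD, and no mouse of the other 7 segments had more than 5. The 99th percentile of these genes within a mouse is used below as the background level of that mouse.

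All 10 receptor genes passed the filter on low values (at least 1 TPM in at least 3 mice) and all 10 differed among the 15 groups in limma's moderated F-test, with Benjamini-Hochberg adjusted p-values from 2.46e-35 for Adora1 to 3.21e-10 for Adora2a, leaving P2ry4 aside. P2ry4 passed the filter only through DTL1, the group where it is highest, and 1 ATL mouse, so its result (adjusted p = 5.63e-07) is not read as a difference. The same held for 93.9% of the 33793 genes tested, so this count says little about receptors in particular. The summed abundance of the 10 genes was 488 ± 21.7 TPM in OMCD (n = 4), 351 ± 25.3 TPM in the glomerulus, 345 ± 35.5 TPM in DTL2 and 328 ± 29.4 TPM in DTL3, and was lowest in PTS1, at 56.7 ± 2.99 TPM (n = 3 each). Different receptors made up these sums, as the plot of mean levels shows.

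**Figure D1:**
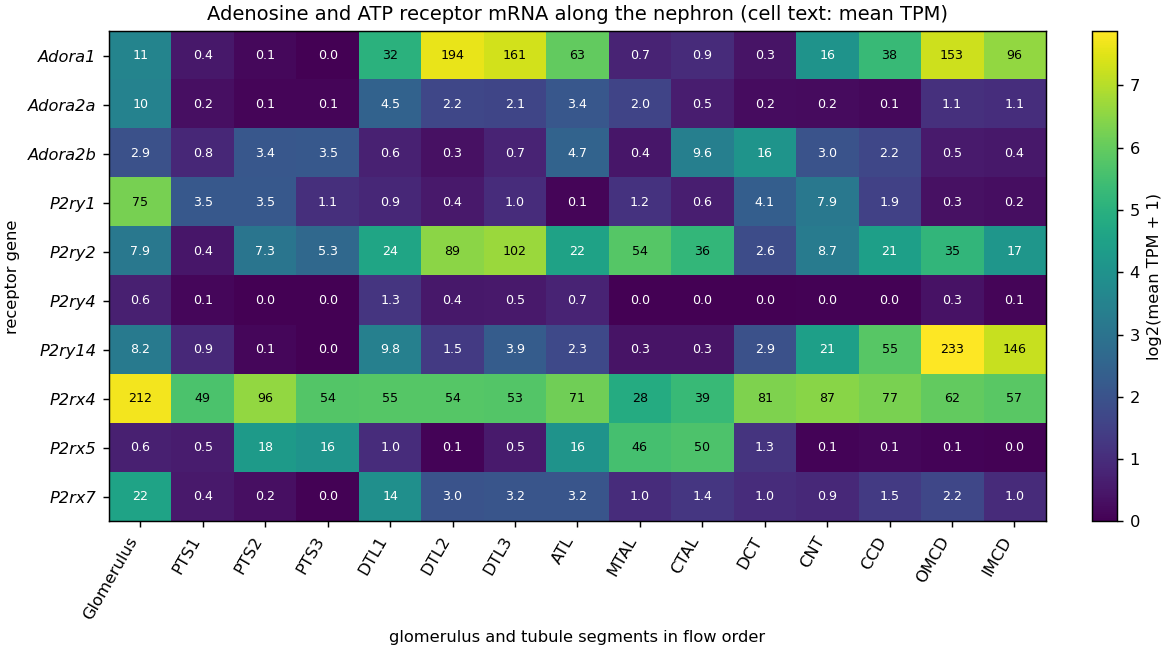
Mean TPM of each receptor gene (rows) in the glomerulus and the 14 tubule segments in flow order (columns), coloured by log2(mean TPM + 1). Adora1 reaches 194 TPM in DTL2 and 153 TPM in OMCD, P2ry14 reaches 233 TPM in OMCD, P2ry1 stands at 75.1 TPM in the glomerulus, and P2rx4 lies between 27.8 and 212 TPM in every group.

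Adora1 encodes the adenosine receptor that couples to inhibitory G proteins and lowers cyclic AMP, and its transcript was most abundant in the thin limbs and the collecting duct system. The 3 DTL2 mice had 218, 195 and 168 TPM and the 3 DTL3 mice 198, 117 and 169 TPM, so both parts of the long descending limb overlapped. The 4 OMCD mice had 166, 178, 142 and 128 TPM, within the range of DTL3. IMCD, at 102, 87.1 and 99.1 TPM, lay below every OMCD mouse. DTL1 was far lower than DTL2, at 30.3, 34.8 and 30.7 TPM, and the 4 ATL mice spread from 21.5 to 89.2 TPM. In contrast, PTS3 was listed at 0 in all 3 mice, and no mouse of PTS1, PTS2, MTAL, CTAL or DCT exceeded 1.35 TPM. The rise from PTS3 to DTL2 was 7.60 ± 0.27 on the log2(TPM + 1) scale (SE, limma adjusted p = 1.52e-26), and the fall from ATL to MTAL was 5.08 ± 0.25 (adjusted p = 3.33e-21). These differences are on a scale that adds 1 to every TPM and understates the change of low genes, here most of all against the value of 0. Adora1 was above the background level in every mouse of DTL1, DTL2, DTL3, ATL and OMCD. The glomerular mice ranged from 7.30 to 12.6 TPM, also above it in 3 of 3 mice.

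The collecting duct showed a stepwise increase of the same gene. Adora1 went from 0.34 ± 0.24 TPM in DCT (n = 3) to 15.5 ± 2.40 TPM in CNT (n = 3), 38.4 ± 7.09 TPM in CCD (n = 5) and 153 ± 22.4 TPM in OMCD (n = 4), with no overlap between mice at any of these steps. The log2 differences were 3.62 ± 0.27, 1.27 ± 0.24 and 1.98 ± 0.22 (SE; limma adjusted p = 2.43e-14, 0.000917 and 3.51e-09). From OMCD to IMCD the log2 difference of 0.68 ± 0.25 (adjusted p = 0.0359) did not reach the required size of 1.

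Adora2a and Adora2b encode the adenosine receptors that couple to the stimulatory G protein and raise cyclic AMP, and their highest groups were not those of Adora1. Adora2a was highest in the glomerulus, where the 3 mice had 11.4, 9.95 and 9.60 TPM, all above every mouse of every other group. Adora1 was about as abundant there. Of the glomerular sum of Adora1, Adora2a and Adora2b, Adora2a held 44.0 ± 6.38% and Adora1 44.2 ± 5.99% (n = 3). Adora3, the other adenosine receptor gene, is not in that sum. Its glomerular mice had 5.70, 3.10 and 1.80 TPM, where the background level was 3.48 to 9.52 TPM. The next group for Adora2a, DTL1, ranged from 1.65 to 6.99 TPM, below the background level in all 3 mice. The margin of the glomerulus over DTL1 (1.16 on the log2 scale) did not pass the test of being highest in 1 group (adjusted p = 0.0854). In DTL2, DTL3 and ATL no mouse of Adora2a exceeded the background level either. MTAL, with 1.48, 3.27 and 1.36 TPM, was the only tubule segment in which all mice stood above it. In CTAL 4 of 5 mice did so, in IMCD 2 of 3, in PTS2 2 of 5, and in DCT and CNT 1 of 3 each. The glomerular samples also carried the endothelial list at 2995 TPM and the mesangial, smooth muscle and stromal list at 586 TPM (6 of 6 genes of each list at 1 TPM or more), and the part of these cells in the Adora2a level was not tested.

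Adora2b had its highest levels in DCT and CTAL. The 3 DCT mice had 21.5, 11.6 and 14.1 TPM and the 5 CTAL mice had 10.3, 6.67, 10.9, 11.9 and 8.05 TPM, so the groups overlapped and their log2 difference of 0.64 ± 0.34 missed the threshold (adjusted p = 0.432). MTAL, at 0.17, 0.87 and 0.15 TPM, lay below every CTAL mouse, and the cortical part of the thick limb exceeded the medullary part by 2.94 ± 0.34 (adjusted p = 1.2e-08). From DCT to CNT the gene fell by 2.05 ± 0.38 on the log2 scale (adjusted p = 8.12e-05), to 3.02 ± 1.0 TPM (n = 3). The straight proximal tubule also carried it, at 3.44 ± 1.0 TPM in PTS2 (n = 5) and 3.53 ± 1.65 TPM in PTS3 (n = 3), above the background level in all 8 mice. In ATL, 1 mouse stood at 12.1 TPM and the other 3 at 1.23 to 3.77 TPM, and without that mouse (number 3) the ATL difference from DTL3 no longer reached 1 (0.96, adjusted p = 0.0149).

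The composition of adenosine receptor mRNA therefore changed along the tubule, as measured by the share of each gene in the sum of the 3, which leaves out Adora3. Adora1 made up 98.8 ± 0.46% in DTL2 (n = 3) and 99 ± 0.43% in OMCD (n = 4). Adora2b made up 94.7 ± 2.93% in PTS2 (n = 5) and 97.3 ± 3.84% in PTS3 (n = 3). Further along it held 86.2 ± 6.39% in CTAL (n = 5) and 96.5 ± 2.0% in DCT (n = 3). The change of leading receptor at DCT to CNT, from 96.5% Adora2b to 83.3 ± 2.66% Adora1 (n = 3), took place within a summed level that went from 16.3 to 18.7 TPM. In MTAL, where the sum was 3.14 ± 1.59 TPM, Adora2a held 65.1 ± 7.13% (n = 3).

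**Figure D2:**
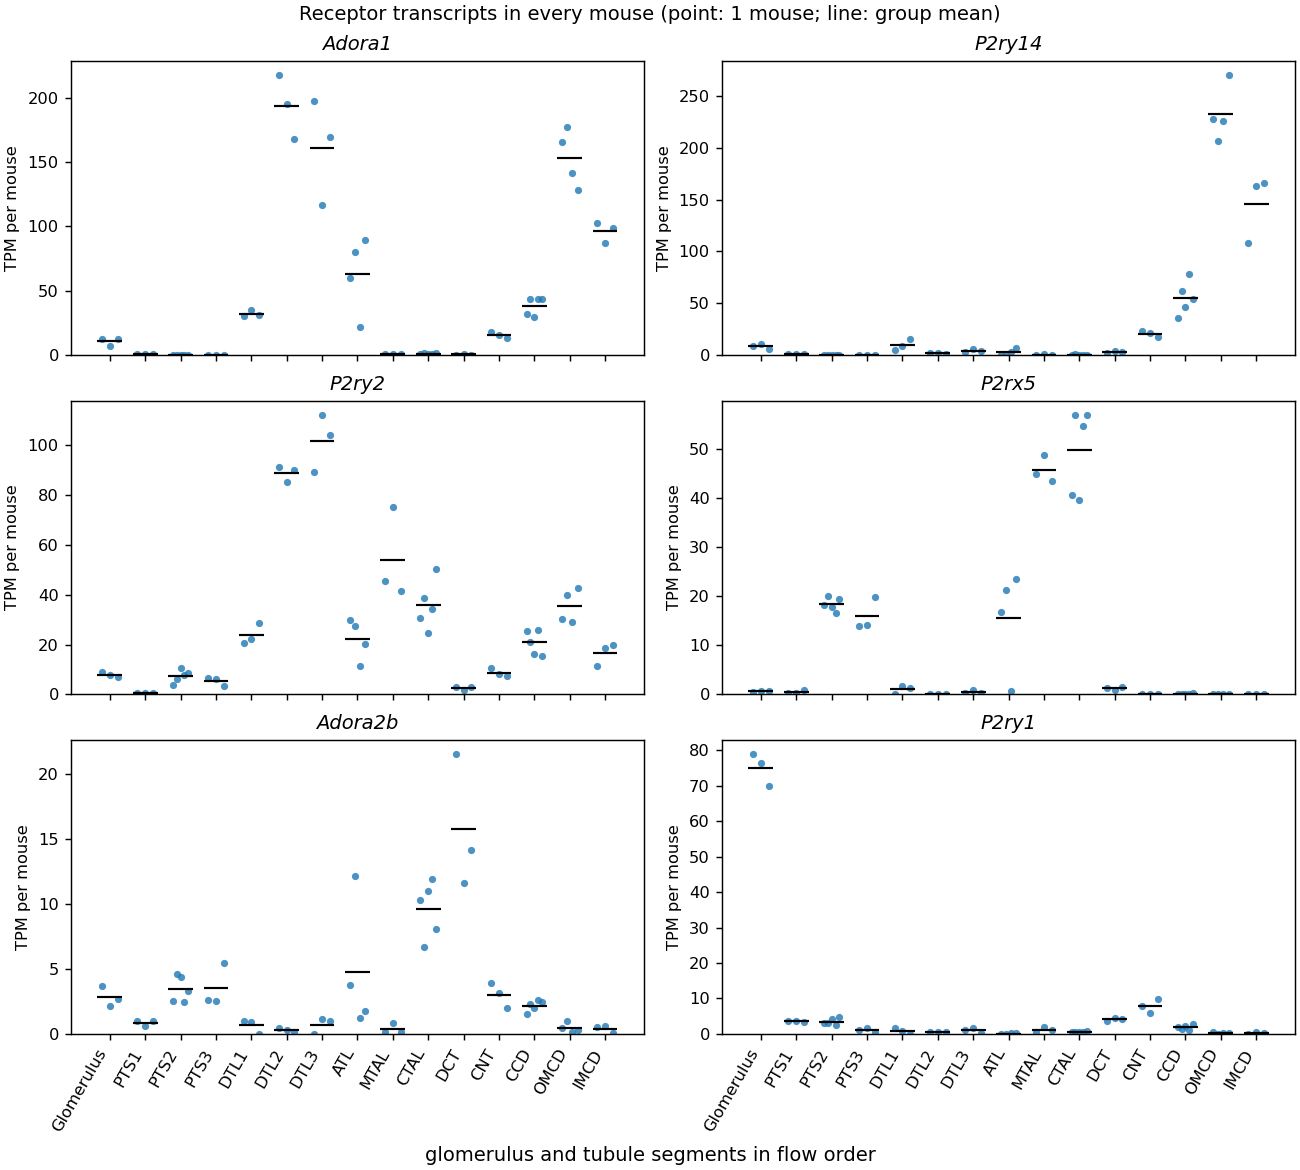
TPM of 6 receptor genes in every mouse (points) with the group mean (line), for the glomerulus and 14 segments in flow order, each panel on its own linear axis from 0. Adora1 is high in the thin limbs and collecting duct, P2rx5 in the thick limb, P2ry1 in the glomerulus, and among the ATL mice the lowest for P2rx5 (mouse 4, 0.78 TPM) and the highest for Adora2b (mouse 3, 12.1 TPM) are different animals.

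Among the P2Y genes, P2ry1 encodes an ADP receptor that couples to phospholipase C, and its transcript was concentrated in the glomerulus. The glomerular mice had 79.0, 76.5 and 70.0 TPM, and the next group, CNT, had 7.75, 6.01 and 9.85 TPM. P2ry1 passed the test of being higher in the glomerulus than in each of the 14 other groups, with a log2 margin of 3.12 ± 0.27 over CNT (SE, adjusted p = 8.32e-13), as did 3.22% of all genes tested. With all mice and the TPM as deposited, P2rx4 was the only other of the 10 genes to pass that test in any group. The number passing rose from 2 to 4 without DTL1 mouse 5 or without ATL mouse 3. Along the tubule P2ry1 was low. CNT lay above every mouse of the other 13 tubule segments, whereas DCT, with 4.14 ± 0.50 TPM (n = 3), overlapped with PTS1 at 3.52 ± 0.23 TPM (n = 3) and PTS2 at 3.48 ± 0.89 TPM (n = 5). Each mouse of these 4 segments stood above the background level. DCT was above CTAL by 1.70 ± 0.24 (adjusted p = 5.81e-07), and CNT exceeded CCD by 1.65 ± 0.24 (adjusted p = 1.17e-05). In CNT the mesangial, smooth muscle and stromal list summed to 73.7 TPM and in CCD to 57.9 TPM, against 5.07 TPM in DCT. In CNT 4 of the 6 genes of that list averaged under 1 TPM, and the part of these cells in the CNT level was not tested. The step from CNT to CCD lost its call both with a pseudocount of 0.1, where the difference was 2.08 (adjusted p = 0.0597), and with a pseudocount of 5, where it was 0.90 (adjusted p = 1.35e-08).

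P2ry2 encodes a receptor for ATP and UTP that couples to phospholipase C and is known for opposing vasopressin in the collecting duct. It was expressed over a longer stretch than P2ry1, with 14 of 15 groups at a mean of 1 TPM or more. DTL3, with 89.1, 112 and 104 TPM, and DTL2, with 91.3, 85.4 and 90.2 TPM, overlapped and lay above every mouse of every other group. MTAL followed at 45.6, 75.3 and 41.4 TPM and CTAL at 24.6 to 50.5 TPM (median 34.2, n = 5). From CTAL to DCT the gene fell by 3.33 ± 0.26 on the log2 scale (adjusted p = 3.05e-14), to 3.06, 1.95 and 2.77 TPM, and then rose again by 1.43 ± 0.29 to CNT and by 1.17 ± 0.26 to CCD (adjusted p = 0.000295 and 0.00527). OMCD reached 35.4 ± 6.90 TPM (n = 4) and IMCD 16.7 ± 4.48 TPM (n = 3), a fall of 1.06 ± 0.27 (adjusted p = 0.00172) that no longer reached 1 without OMCD mouse 4 (0.97) or IMCD mouse 1 (0.83). That fall was also under 1 after quantile normalization (0.64) and median ratio rescaling (0.71). Without CNT mouse 3 the step to CCD lost its call (1.06, adjusted p = 0.0855), and after quantile normalization the rises to CNT and CCD were 0.95 and 0.99. The start of the tubule carried little of it: PTS1 had 0.36, 0.48 and 0.36 TPM, and PTS2 was higher by 2.5 ± 0.26 (adjusted p = 8.42e-11), at 3.80 to 10.5 TPM.

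P2ry14 encodes a receptor for UDP-glucose that couples to inhibitory G proteins and is known for driving inflammatory signalling in the collecting duct. It was the most abundant P2Y transcript of the collecting duct. Of the sum of P2ry1, P2ry2, P2ry4 and P2ry14 it held 86.6 ± 2.06% in OMCD (n = 4) and 89.7 ± 0.58% in IMCD (n = 3). Other P2Y genes are not in that sum, among them P2ry6 at a mean of 6.77 TPM in OMCD and 1.34 TPM in IMCD. The OMCD mice had 228, 207, 226 and 271 TPM, the IMCD mice 108, 164 and 166 TPM, the CCD mice 35.8 to 78.3 TPM (median 54.3, n = 5) and the CNT mice 22.8, 21.1 and 17.7 TPM. No mouse of one of these groups overlapped with the group next to it in level. The log2 rise was 2.5 ± 0.38 from DCT to CNT (adjusted p = 2.05e-06), 1.36 ± 0.34 from CNT to CCD (adjusted p = 0.0181) and 2.10 ± 0.31 from CCD to OMCD (adjusted p = 1.53e-06). The middle step is the weakest of these: its adjusted p rose to between 0.06 and 0.164 when CNT mouse 1, 2 or 3 was left out (differences of 1.26 to 1.43), and to 0.0773 without CCD mouse 4 (1.22). With a pseudocount of 0.1 the difference was 1.39 and the adjusted p 0.44. OMCD and IMCD differed by 0.70 ± 0.35 (adjusted p = 0.128). Outside the collecting system, DTL1 stood at 9.77 ± 5.2 TPM and the glomerulus at 8.20 ± 2.53 TPM (n = 3 each), where 1 of 3 and 2 of 3 mice exceeded the background level.

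Cell type markers also changed from CNT to IMCD, as the plot from DCT to IMCD shows, and their part in the levels of P2ry14 and Adora1 was not tested. The principal cell list summed to 10090 ± 1690 TPM in CNT and 20100 ± 2082 TPM in CCD, then to 33810 ± 7449 TPM in OMCD, and was 28790 ± 2176 TPM in IMCD. The type A intercalated list rose as well up to OMCD, with CNT at 772 ± 41.9 TPM, CCD at 961 ± 57.2 TPM and OMCD at 2505 ± 427 TPM, and was 0.93 TPM in IMCD. The list of markers shared by intercalated cells fell along the same path: it summed to 2490 TPM in CNT, 2063 TPM in CCD and 1282 TPM in OMCD, and to 1.60 TPM in IMCD, where all 3 of its genes had means under 1 TPM. The type B list fell from 2877 TPM in CNT to 43.5 TPM in OMCD and 0.18 TPM in IMCD. In IMCD, with these 3 lists near 0, P2ry14 was at 146 ± 32.6 TPM, Adora1 at 96.2 ± 8.02 TPM and P2ry2 at 16.7 ± 4.48 TPM (n = 3 each). The thin limb list went the other way, with CCD at 23.5 TPM, OMCD at 121 TPM and IMCD at 2192 ± 690 TPM. Of this list Slc14a2, a urea transporter also known from the inner medullary collecting duct, held 2182 ± 685 TPM of the IMCD sum, and Psca was at 7.16 TPM.

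**Figure D3:**
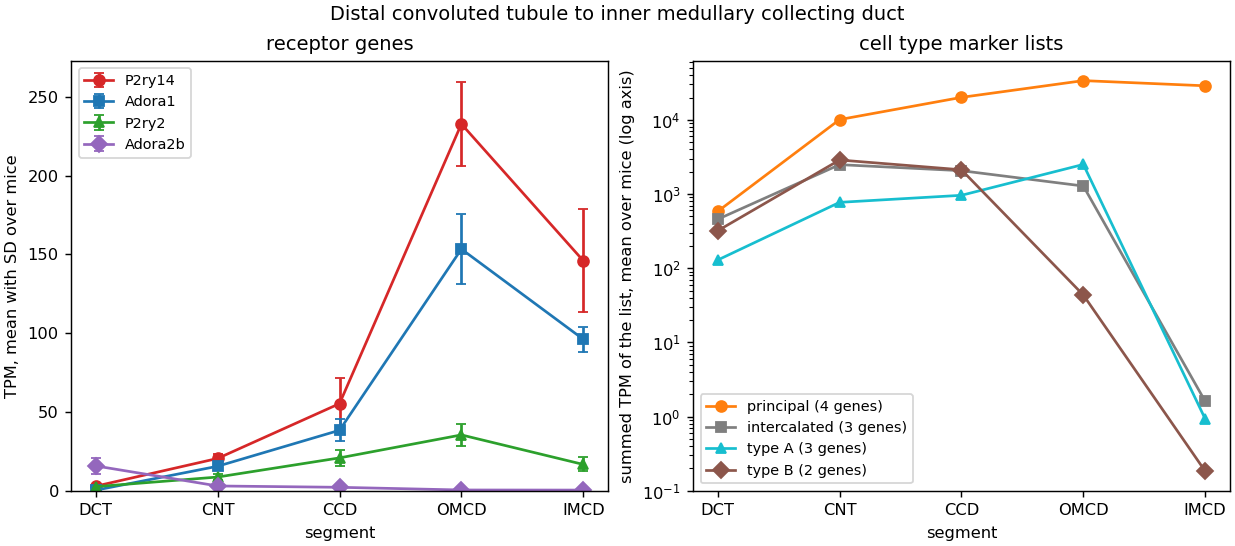
Left, TPM (mean with SD over 3 to 5 mice) of P2ry14, Adora1, P2ry2 and Adora2b from DCT to IMCD; right, summed TPM of 4 cell type marker lists on a log axis. P2ry14 and Adora1 peak in OMCD at 233 and 153 TPM and remain at 146 and 96.2 TPM in IMCD, where the intercalated, type A and type B lists are at 1.60, 0.93 and 0.18 TPM.

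Promoter sequence was available from RefSeq (GRCm38.p6) for 8 of the 10 genes, as windows from 250 bases before to 50 after a transcript's start. The 4 shown belong to the receptors called at the step from DCT to CNT, of which Adora1, P2ry2 and P2ry14 rose and Adora2b fell, with the first window listed where a gene has several. Capitals mark matches on either strand to the hypoxia element cores ACGTG and GCGTG and to the AP-2 motif GCCNNNGGC. Adora1 lies at chr1:134235408-134235707 on the minus strand, Adora2b at chr11:62248734-62249033 on the plus strand, P2ry2 at chr7:101012004-101012303 on the minus strand and P2ry14 at chr3:59153443-59153742 on the minus strand.
Adora1: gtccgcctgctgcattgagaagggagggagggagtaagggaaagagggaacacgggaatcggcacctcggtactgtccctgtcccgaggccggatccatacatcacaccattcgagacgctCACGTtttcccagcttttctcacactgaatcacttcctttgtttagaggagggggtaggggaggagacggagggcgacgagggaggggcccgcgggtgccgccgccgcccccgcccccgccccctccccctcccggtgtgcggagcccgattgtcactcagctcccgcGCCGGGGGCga
P2ry2: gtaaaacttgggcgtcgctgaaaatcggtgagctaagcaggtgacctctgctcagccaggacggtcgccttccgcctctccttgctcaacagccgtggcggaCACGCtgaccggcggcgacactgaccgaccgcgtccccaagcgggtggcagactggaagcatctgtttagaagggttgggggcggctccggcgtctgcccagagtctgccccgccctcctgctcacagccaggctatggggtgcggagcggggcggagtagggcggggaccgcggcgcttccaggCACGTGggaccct
P2ry14: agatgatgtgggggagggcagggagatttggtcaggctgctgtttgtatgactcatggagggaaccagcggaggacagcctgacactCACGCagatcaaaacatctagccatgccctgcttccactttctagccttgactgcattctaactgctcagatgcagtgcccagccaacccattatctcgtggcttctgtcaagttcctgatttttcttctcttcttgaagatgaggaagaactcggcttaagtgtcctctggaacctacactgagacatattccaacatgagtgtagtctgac
Adora2b: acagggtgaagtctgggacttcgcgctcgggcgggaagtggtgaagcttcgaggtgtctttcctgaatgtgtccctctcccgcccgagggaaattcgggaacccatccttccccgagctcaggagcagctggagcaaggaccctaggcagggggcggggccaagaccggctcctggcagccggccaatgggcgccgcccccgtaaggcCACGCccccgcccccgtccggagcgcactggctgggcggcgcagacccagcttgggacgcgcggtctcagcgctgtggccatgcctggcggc
The windows of Adora1, P2ry2 and Adora2b are rich in CpG, with 26, 28 and 27 CpG dinucleotides against a median of 7 over all 32851 windows, whereas the P2ry14 window has 4 and its other 3 windows have 1, 4 and 3. ACGTG occurs in 19.6% of all windows and was found in those of Adora1 (1 match) and P2ry2 (2 matches, which overlap as CACGTG read on both strands). GCGTG occurs in 32.4% of all windows and was found once in each of the P2ry2, P2ry14 and Adora2b windows, and GCCNNNGGC occurs in 16.6% and was found once in that of Adora1. Neither TATAAA (13.6% of windows) nor GTTAAT, an HNF1 half-site (7.1%), was found in the 4 windows. The other Adora1 window, which is not shown, holds 3 GCGTG matches, and 1 of the P2ry14 windows not shown holds a TATAAA match. The other P2ry2 window holds 1 GCGTG and 2 ACGTG matches. It lies at chr7:101011949-101012248 and overlaps the window shown, so the same sites can be counted in both.

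P2ry4, which encodes a receptor activated mainly by UTP, was close to undetectable. Its highest mouse value was 1.94 TPM, in ATL, and DTL1 had 1.24, 1.12 and 1.53 TPM. In 0 of 53 mice did it exceed the background level. It was highest in DTL1, where odorant receptor signal was also highest, and listed at 0 in all 3 PTS3 mice; the part of that signal in its level was not tested.

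The P2X genes encode subunits that assemble as trimers. P2rx4, whose product is also found in endosomes and lysosomes, was the one receptor transcript present at a mean of 27.8 TPM or more in all 15 groups, and it exceeded the background level in each of the 53 mice. The glomerular mice had 202, 238 and 198 TPM, above every tubule mouse, with a log2 margin of 1.13 ± 0.16 over PTS2 (adjusted p = 4.15e-07). This margin depends on scaling: after rescaling by median ratios the glomerulus fell below another group by 0.08. PTS2 had 87.2 to 105 TPM (n = 5), CNT 93.8, 91.5 and 76.9 TPM and CCD 76.0 to 79.2 TPM (n = 5). The thick limb was lowest, at 29.6, 26.5 and 27.4 TPM in MTAL, below all mice of every other group, and 36.9 to 42.2 TPM in CTAL (n = 5), which overlapped with 1 DTL2 mouse at 42.0 TPM and 1 ATL mouse at 41.5 TPM. The rise from CTAL to DCT was 1.05 ± 0.16 (adjusted p = 2.98e-06) and fell to 0.98 without DCT mouse 1.

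P2rx5 was the opposite in the thick limb, where it was the leading P2X transcript. The MTAL mice had 44.8, 48.7 and 43.5 TPM and the CTAL mice 40.5, 57.0, 39.6, 54.7 and 56.9 TPM. These groups overlapped (log2 difference 0.10 ± 0.39, adjusted p = 1) and lay above every other mouse. P2rx5 held 61.3 ± 2.25% of the sum of P2rx4, P2rx5 and P2rx7 in MTAL (n = 3) and 55.0 ± 4.33% in CTAL (n = 5). Other P2X genes are not in that sum. At the border to DCT it fell by 4.48 ± 0.39 on the log2 scale (adjusted p = 1.65e-12), to 1.32, 0.95 and 1.51 TPM, and from CNT to IMCD no mouse exceeded 0.21 TPM. A second region of expression was the straight proximal tubule, with 16.6 to 20 TPM in PTS2 (n = 5) and 13.8, 14.2 and 19.8 TPM in PTS3, against 0.33, 0.37 and 0.82 TPM in PTS1. The step from PTS1 to PTS2 was 3.70 ± 0.39 (adjusted p = 1.98e-10). P2rx5 shared this second region with Adora2b and P2ry2, the other 2 receptor genes called higher in PTS2 than in PTS1.

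In the thin ascending limb the library of mouse 4 was the lowest or highest of the 4 for several genes, P2rx5 among them. Mice 2, 3 and 6 had 16.7, 21.2 and 23.5 TPM and mouse 4 had 0.78 TPM, so ATL exceeded DTL3 by 2.99 ± 0.41 with all 4 mice (adjusted p = 1.46e-07) and by 3.88 without mouse 4. The value of mouse 4 did not meet Dixon's criterion for an outlier among the 4. Markers of the thick limb were looked up in the same mice. Umod stood at 6.41, 11.8, 16.1 and 3.18 TPM in mice 2, 3, 4 and 6, against means of 21240 TPM in MTAL and 36930 TPM in CTAL. Slc12a1 stood at 5.99, 25.6, 0.69 and 8.76 TPM, against 4116 TPM in MTAL. Cldn16 was at 611, 699, 287 and 685 TPM, against 53.4 TPM in MTAL and 482 TPM in CTAL. Mouse 4 was thus lowest for P2rx5, Slc12a1 and Cldn16 and highest for Umod. It was also the lowest of the 4 for Adora1 (21.5 TPM), P2ry2 (11.2 TPM), P2rx4 (41.5 TPM), Adora2b (1.23 TPM) and the thin limb marker Psca (9765 TPM, against 12850 to 16930 TPM), and the highest for the principal cell marker Aqp2 (25.1 TPM, against 1.46 to 10.6 TPM). ATL lay below MTAL in P2rx5 by 2.03 ± 0.41 with all 4 mice (adjusted p = 8.66e-05) and by 1.13 without mouse 4 (adjusted p = 2.29e-05).

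P2rx7 encodes the channel subunit that needs high ATP to open and is known from immune and mesangial cells. It was highest in the glomerulus, at 20.5, 24.8 and 22.1 TPM, all above the background level. The DTL1 mice spread over 3.15, 10.3 and 28.6 TPM and overlapped with the glomerulus, and the margin between both groups (1.05 ± 0.42) did not pass (adjusted p = 0.157). In the other 13 groups no mouse exceeded 4.76 TPM. In CCD, where background was low, the 5 mice were close together at 1.34 to 1.70 TPM and above the background level. The endothelial list in DTL1 summed to 941 TPM and the leukocyte list to 187 TPM (106 to 337 TPM over its mice), and their part in the DTL1 values was not tested. The leukocyte list was at 195 to 655 TPM on average from MTAL to OMCD, where P2rx7 had means of 0.89 to 2.18 TPM.

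Steps between neighbouring groups were tested in 15 pairs, 150 tests for the 10 genes, with a call at adjusted p under 0.05 and a log2 difference of at least 1. There were 62 calls (41.3%). The share of all genes called ranged by pair from 1.12% (CNT to CCD) to 65.5% (PTS3 to DTL1). Among the 62 calls are the P2ry4 steps at DTL1, which its passing of the filter through DTL1 alone does not let stand as a difference. From the glomerulus to PTS1, 8 genes were called, all higher in the glomerulus, where 51.9% of all genes were called in either direction. From PTS3 to DTL1 8 genes were called against 65.5% of all genes, from DTL1 to MTAL 6 against 56.6%, and from PTS3 to DTL2 7 against 40%. In these 4 pairs the receptors' shares of 80%, 80%, 60% and 70% stand beside backgrounds of 40% or more, and the median gene itself was shifted, by 0.96 in favour of the glomerulus, 1.33 and 0.71 in favour of DTL1 and DTL2 over PTS3, and 1.10 in favour of DTL1 over MTAL. Quantile normalization, which removes these shifts, changed the splits of higher against lower calls. At the glomerulus the 8 calls became 6, all still higher there, both after it, with P2ry14 at 0.89, and after median ratio rescaling, with P2rx4 at 0.82. At PTS3 to DTL1 the 6 higher in DTL1 and 2 lower became 3 and 3, at DTL1 to MTAL the 4 higher in DTL1 and 2 lower became 1 and 4, and at PTS3 to DTL2 the 5 higher in DTL2 and 2 lower became 2 and 3. Several of these calls lie at the background level. Of the 6 genes called higher in DTL1 than in PTS3, Adora1 and P2ry2 exceeded that level in 3 of 3 DTL1 mice, P2rx7 in 2, P2ry14 in 1, and Adora2a and P2ry4 in 0. The P2ry2 step to DTL1 was itself lost after median ratio rescaling (0.75) and quantile normalization (0.32, adjusted p = 0.405). Of the 5 called higher in DTL2, Adora1 and P2ry2 did so in 3 of 3 mice, P2rx7 in 1, and Adora2a and P2ry14 in 0. Adora1 and P2ry2 kept their calls for PTS3 to DTL2 under each of the 65 alternatives run. Adora2b was the weakest of the 8 calls at the glomerulus (1.03), with 0 of 3 glomerular mice above the background level: it was lost without glomerulus mouse 1 (adjusted p = 0.0703) or PTS1 mouse 2 (0.0523), and quantile normalization turned it to -0.46. The rise of P2ry2 from DTL1 to MTAL fell to 0.85 without MTAL mouse 2.

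The remaining pairs had lower backgrounds. From PTS1 to PTS2, 3 receptor genes were called (P2ry2, P2rx5 and Adora2b, all higher in PTS2) against 9.57% of all genes, and from PTS2 to PTS3 P2ry1 alone fell, against 4.7%. From DTL2 to DTL3 limma called 0 of the 10 (1 at an unadjusted p under 0.05), against 9.58%. From DTL3 to ATL 4 were called against 14.6%, with Adora1 and P2ry2 lower and P2rx5 and Adora2b higher in ATL, and from ATL to MTAL 6 against 28.1%, 3 in each direction (1 higher in ATL and 3 in MTAL after quantile normalization). Of these, P2rx4 was at 0.9997 without ATL mouse 2, and P2ry1 fell below 1 without ATL mouse 2 or 3 (0.98 each) or MTAL mouse 2 (0.75). P2rx4 was also under 1 after median ratio rescaling (0.81) and quantile normalization (0.94), and Adora2b after quantile normalization (0.74, adjusted p = 0.139). With ATL mice 2 and 3 only, P2ry2 did not reach 1 at ATL to MTAL (0.84). With ATL mice 4 and 6 only, Adora2b (0.87), P2ry1 (0.92) and P2rx4 (0.84) did not at that step, nor Adora2b at DTL3 to ATL (0.64, adjusted p = 0.105). From MTAL to CTAL Adora2b alone was called, against 3.15%. From CTAL to DCT 5 of 10 were called against 4.35% of all genes: P2rx5 and P2ry2 fell, and P2ry1, P2ry14 and P2rx4 rose. From DCT to CNT 4 were called against 5.22%, with Adora1, P2ry14 and P2ry2 higher and Adora2b lower in CNT. From CNT to CCD 4 were called against 1.12%, with the same 3 genes higher and P2ry1 lower in CCD. From CCD to OMCD 4 were called against 12.1%, with Adora1 and P2ry14 higher and Adora2b and P2ry1 lower in OMCD. From OMCD to IMCD P2ry2 alone fell, against 18.6%. With a pseudocount of 5, which shrinks the differences of low genes, 39 of the 62 calls were made. Among these lower-background pairs P2ry1 no longer reached 1 at PTS2 to PTS3 (0.49), ATL to MTAL (0.29), CTAL to DCT (0.71), CNT to CCD (0.90) or CCD to OMCD (0.37). Adora2b did not at PTS1 to PTS2 (0.52), DTL3 to ATL (0.65), ATL to MTAL (0.73) or CCD to OMCD (0.39). Nor did P2ry2 at DCT to CNT (0.84), CNT to CCD (0.91) or OMCD to IMCD (0.91), or P2ry14 (0.56) and P2rx4 (0.98) at CTAL to DCT.

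**Figure D4:**
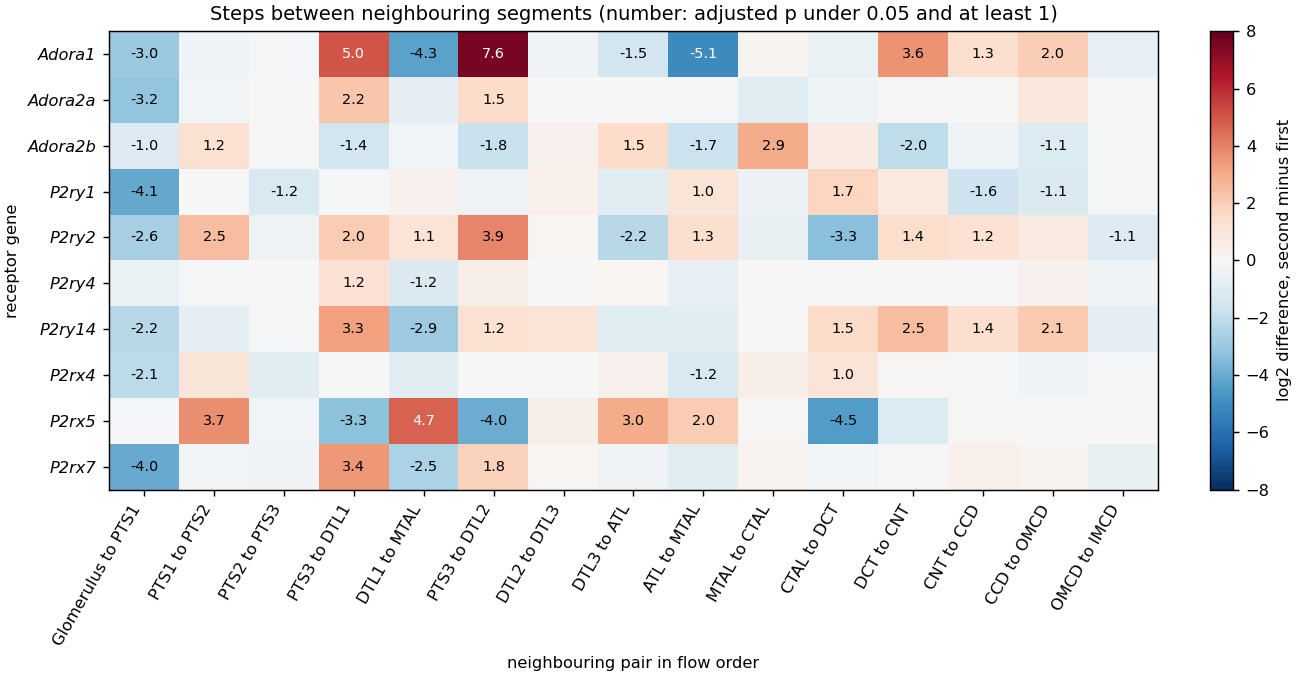
Log2 difference of each receptor gene (rows) between neighbouring groups (columns), second minus first, from the limma fit on log2(TPM + 1); a number is printed where the step was called. The steps of the distal nephron, from CTAL to OMCD, hold falls of P2rx5 and P2ry2 at DCT and rises of Adora1 and P2ry14 that go on through CNT, CCD and OMCD.

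Genes most like each receptor over the 15 group means were ranked by Pearson's r of mean log2(TPM + 1) among 11700 candidates; group means share libraries and background, and the values are descriptions only. For P2ry14 they were Slc26a2, a sulfate transporter (r = 0.98), and Styk1 (0.97), and for Adora1 Hacd4 and Dlg1 (0.97 each). For P2rx5 they were H2-Ke6 (0.89) and Habp4 (0.88), for P2ry2 Arrdc1 and Ndst1 (0.90 each), and for P2ry1 Igfbp5 (0.91) and Aplp1 (0.89). P2rx4 was nearest to Pigk (0.88) and Pcdh1 (0.87), and Adora2b had no close partner, with Klk1b27 at 0.79 and Slc25a30 at 0.76. For Adora2a they were Pdgfra (0.97) and Rem1 (0.96) and for P2rx7 Dlc1 and Rcn3 (0.98 each), all 4 highest in the glomerulus, and for P2ry4 Lhx9 and Pabpc4l (0.99 each), both highest in DTL1. Among the receptors themselves the highest r was that of Adora2a with P2rx7 (0.92).

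The rest of the pathway was read from gene lists drawn up by function. All their genes that passed the filter differed among the 15 groups in the F-test, 7 of the 8 other receptors, 11 of 11 ectoenzymes and enzymes of adenosine metabolism, 7 of 7 nucleoside transporters, 8 of 9 ATP release genes and 11 of 11 coupling genes, which is near the 93.9% of all genes tested and says nothing about these lists in particular. P2rx1, a channel known from vascular smooth muscle, had a mean of 104.5 ± 24.0 TPM in glomeruli (n = 3). It was at most 2.84 TPM on average elsewhere, a log2 margin of 4.97 ± 0.34 (adjusted p = 3.84e-16). In glomeruli the renin cell list was at 1276 TPM and the platelet and erythroid list at 150 TPM. The mesangial, smooth muscle and stromal list was at 586 TPM there. The part of these cells in the P2rx1 level was not tested. P2rx2 was called highest in the glomerulus as well, but it passed the filter through that group, with no mouse elsewhere above 1.0 TPM. Its call is therefore not read as a difference. At 5.55, 6.45 and 8.40 TPM it also lay within the range of the glomerular background level, 3.48 to 9.52 TPM. P2ry6, a UDP receptor, and P2rx3 had means of 10 TPM or more only in groups of high background, among them ATL, DTL1 and the glomerulus for both. The ATL means of 14.2 TPM (P2ry6) and 15.5 TPM (P2rx3) rest largely on single high values, of 33.1 and 33.2 TPM, both from ATL mouse 4. The ATL medians were 8.86 and 11.5 TPM. P2ry6 was at 11.2 to 12.8 TPM in the glomerulus, above the highest glomerular background level of 9.52 TPM, and P2rx3 was at 11.1 to 18.6 TPM in DTL3, above the highest DTL3 level of 5.80 TPM. P2ry12 did not pass the filter.

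The ectoenzymes that act early in ATP breakdown were spread over several segments: Entpd1, an ectonucleoside triphosphate diphosphohydrolase of endothelium, was at 49.2 ± 6.94 TPM in the glomerulus, Entpd2 at 29.6 ± 2.91 TPM in DTL2, Entpd8 at 36.4 ± 1.66 TPM in PTS3, and Enpp3, a nucleotide pyrophosphatase, at 84.0 ± 9.62 TPM in PTS2. Enpp1, of the same family, was at 67.9 ± 5.13 TPM in CTAL (n = 5) and lower by 2.07 ± 0.35 in DCT (adjusted p = 1.47e-05). None of these ectoenzymes passed the test of being highest in 1 group. Entpd2 also had 18.9 to 29.4 TPM in IMCD, and Entpd8 23.8 to 38.6 TPM in PTS2. Entpd1 had 21.8 to 49.0 TPM in DTL1, where the background level was 8.14 to 23.2 TPM. The adenosine-forming enzyme Nt5e was at 224 ± 16.3 TPM in the glomerulus, 174 ± 31.2 TPM in PTS2 (n = 5) and 150 ± 34.9 TPM in PTS3, and at 7.34 ± 2.0 TPM in PTS1, a step of 4.40 ± 0.31 (adjusted p = 4.77e-16). In the groups with the highest Adora1, Nt5e was low, with mean levels of 5.54 TPM in DTL2, 1.2 TPM in DTL3, 4.99 TPM in OMCD and 0.17 TPM in IMCD. The DTL2 mice had 11.4, 3.35 and 1.85 TPM. Low Nt5e was not particular to these groups: it was at most 0.21 TPM in MTAL and 1.01 TPM in CTAL, where Adora1 was low too. Alpl, an alkaline phosphatase that also dephosphorylates AMP, was called highest in PTS1, at 1033 ± 46.7 TPM. Adk, which phosphorylates adenosine, led in the proximal tubule (251 ± 13.2 TPM in PTS1) and was lowest in IMCD (19.8 TPM).

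Among the nucleoside transporters, Slc29a1, the equilibrative transporter of the cell surface, was at 209 ± 15.8 TPM in the glomerulus, 165 ± 15.5 TPM in DCT and 159 ± 8.54 TPM in CNT, and fell from CCD to OMCD by 1.86 ± 0.28 and from OMCD to IMCD by 3.50 ± 0.32 (adjusted p = 3.09e-06 and 2.80e-12), while Adora1 rose by 1.98 over the first of these steps. Slc28a1, a sodium-coupled transporter, was called highest in PTS2, at 28.5 ± 4.84 TPM. Of the ATP release genes, Panx1, a pannexin channel, was at 17.0 ± 1.14 TPM in OMCD (n = 4) and rose by 2.67 ± 0.22 from CCD (adjusted p = 1.06e-12). Panx1 was listed about as high in DTL1, at 16.8 ± 1.43 TPM, and was at 0.85 ± 0.29 TPM in IMCD (n = 3 each). The DTL1 value lies within the range of the background level there, 8.14 to 23.2 TPM over its mice, against 1.73 to 3.66 TPM in OMCD. Slc17a9, the vesicular nucleotide transporter, was called highest in the glomerulus at 13.8 ± 0.78 TPM.

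The coupling genes encode G protein subunits, adenylyl cyclase and phospholipase C enzymes. Plcb4, a phospholipase C, was highest in OMCD, at 92.6 ± 8.59 TPM (n = 4), without passing the test over CCD (adjusted p = 0.199). Gnai1, an inhibitory G protein subunit, was at 125 ± 9.81 TPM in DTL3 and 59.8 TPM in OMCD, and fell from OMCD to IMCD by 4.42 ± 0.20 (adjusted p = 4.48e-23). Gnai2 and Gnai3, the other 2 inhibitory subunits, remained in IMCD at 205 and 64.5 TPM.

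**Figure D5:**
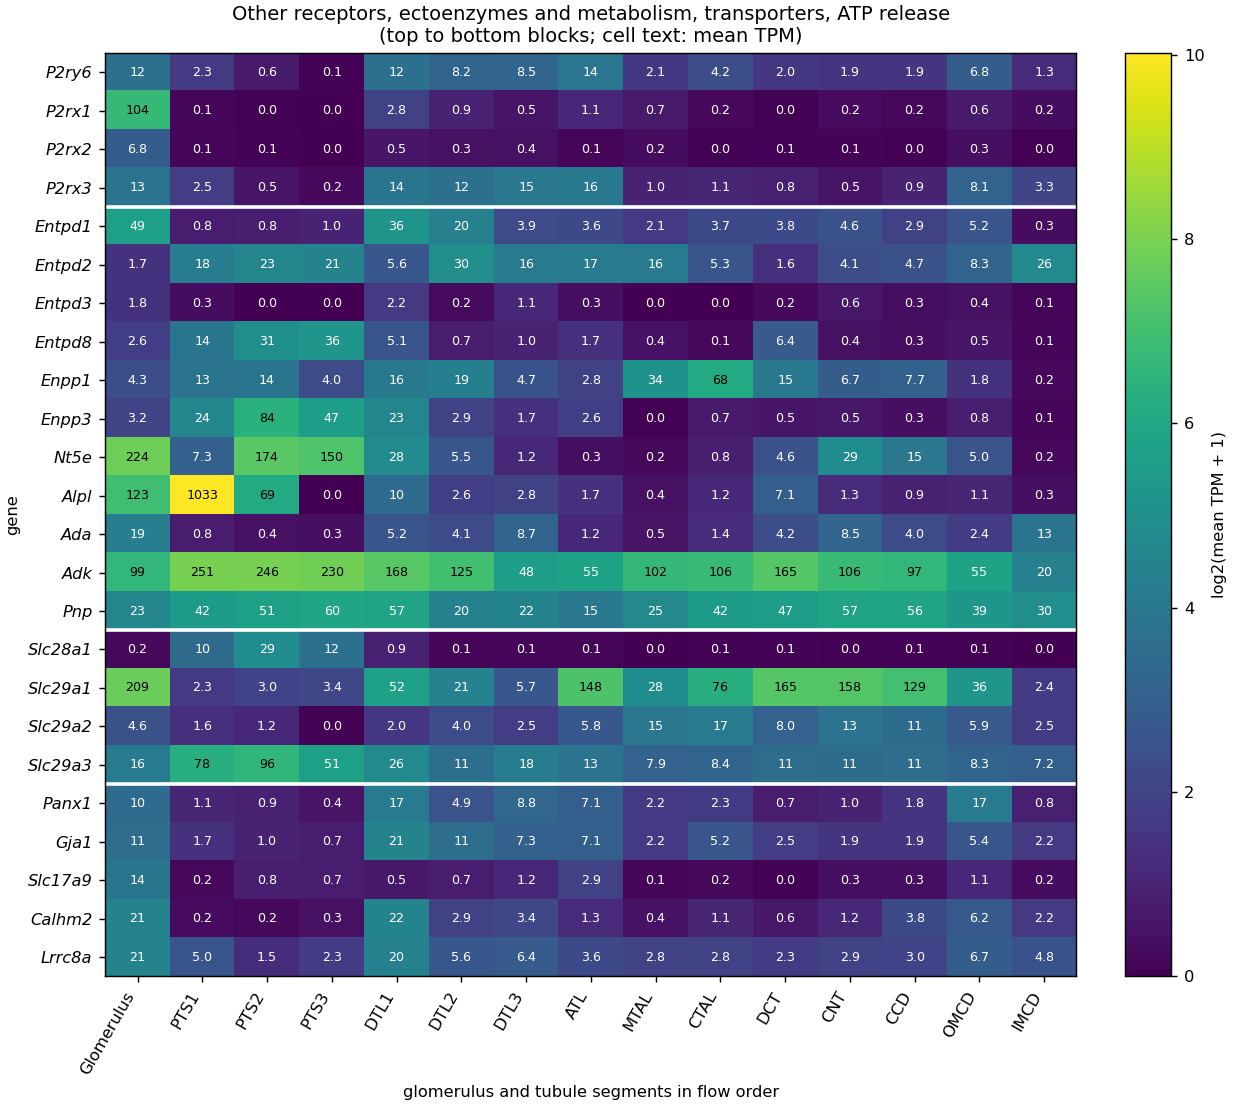
Mean TPM of 24 further genes (rows, in blocks of other receptors, ectoenzymes and metabolism, transporters and ATP release) in the 15 groups, coloured by log2(mean TPM + 1). Nt5e is at 174 TPM in PTS2 and at 5.54 TPM or less in DTL2, DTL3, OMCD and IMCD, and Slc29a1 is at 165 TPM in DCT and 2.35 TPM in IMCD.

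Some receptor genes share genomic sequence with others in the GENCODE M21 annotation, and without strand information their reads cannot be told apart. Exons of Adora1 overlap those of Mybph on the opposite strand (mean of at most 0.77 TPM in any group), and those of P2ry1 overlap the antisense gene Gm37035 (at most 2.2 TPM). P2ry14 lies within Med12l on the opposite strand with no shared exon, and Med12l was at 7.37 TPM in IMCD and at most 4.25 TPM elsewhere. P2rx7 contains the miRNA gene Mir8115 on its own strand (at most 5.26 TPM).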

How the data were processed

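RNA of microdissected glomeruli and tubule segments was made into cDNA with an ultra-low-input kit and sequenced, per the labels' protocols. The authors deposited TPM per gene and sample. The submitters' processing notes name STAR 2.5.4a, RSEM 1.3.0, Cell Ranger 3.0.2 and Seurat without their roles, and strand handling is not given in the sources used here. TPM keeps no read number, so depth and counting error are unknown. The 3 single-cell samples were not analysed here. Pieces of 1 mouse and segment were averaged, so mice are the replicates (53, the number the series' design gives). The column of 1 PTS2 mouse carries mouse number 2 with another piece letter than the only PTS2 sample title left, and was used without a number. Genes with at least 1 TPM in at least 3 mice were tested on log2(TPM + 1) with limma 3.58.1 in R 4.3.3, in 1 fit over 15 groups, with Benjamini-Hochberg adjustment over 33793 genes: an F-test, a test of being highest in 1 group by at least 1, and 15 neighbouring pairs (adjusted p under 0.05, log2 difference of at least 1). The scripts were tested on simulated data. The 10 receptors and all gene lists were chosen with earlier results of these data known. Other genes named are those of the lists that passed the F-test with a mean of at least 10 TPM in some group or were found in a receptor's highest group, and the 2 most like each receptor. Named outside this rule, after their values were seen, are P2ry12, the markers given for ATL and IMCD and the genes that overlap a receptor. Alternatives covered the pseudocount, filter, scaling, averaging, a replicate block, ATL mice and each mouse left out.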

Additional observations from a re-analysis of the deposited data

Results flagged for a closer look

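P2rx7 in ATL mouse 3 was listed at 0.0 TPM, apart from the other ATL mice at 3.92 to 4.63 TPM (n = 4). It was the only value to stand apart by Dixon's criterion among 31 combinations of receptor gene and group tested, and chance alone marks about 1 in 20. Of the 4 ATL mice, 1 exceeded its background level of odorant receptor genes for P2rx7.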

How the results depend on the processing

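The 62 receptor calls between neighbours became 39 with a pseudocount of 5 and 73 with 0.1. Quantile normalization gave 50 and median ratio rescaling 58. Without the glomerulus and DTL1 there were 41 over the 12 remaining pairs, where all groups together gave 40. Shares of all genes called are given above for the main setting only, so these counts describe the receptor genes alone. The 2 receptor genes with a single highest group became 1 after median ratio rescaling, 3 after quantile normalization and 0 without the glomerulus and DTL1, an outcome set by leaving out the group in which both were highest. Leaving out each mouse in turn gave 60 to 65 neighbour calls, 2 to 4 genes highest in 1 group and 10 to 10 genes differing among groups. A total of 3 results reversed: the P2rx4 margin of the glomerulus (-0.082 after median ratio rescaling), Adora2b between glomerulus and PTS1 (-0.46) and P2ry4 between DTL1 and MTAL (-0.048), the last 2 after quantile normalization, which also took P2ry4 out of the genes differing among groups (adjusted p = 0.0721). The cause was not tested. With the mouse number as a replicate block, 65 neighbour calls, 3 genes highest in 1 group and 10 differing genes were found. With 53 mice given by the series' design, a number was not taken to pair samples across segments. Over 290 pairs of groups sharing a number the median correlation of deviations was 0.000185 (-0.22 to 0.282). Of 52 numbered mice, 16 correlated best with their own number. The share expected by chance was not worked out, so that count decides nothing. Values under about the background level of the glomerulus, thin limbs and OMCD cannot be read as expression.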
